A study of Komagataella phaffii with 15 samples.

Results

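*FLO400* (PP7435_Chr4-0865), *FLO5-1* (PP7435_Chr1-1389) and PP7435_Chr3-1237, a *FLO* family gene without a name of its own, are 3 of the 5341 transcripts measured and 3 of the 13 *FLO* family genes of the yeast *Komagataella phaffii* CBS7435. They were chosen by ID because their transcripts were lower in the *flo8Δ* strain than in the wild-type strain and, in the wild-type strain, highest in the first fast-growing sample. Differences that show this choice are therefore given below as values without a test. RNA-Seq was performed on glucose-limited chemostat cultures, with 3 replicates of each of 5 samples. The *flo8Δ* strain was sampled at S1 (growth rate 0.1 h-1) and S3 (0.05 h-1), and the wild type at the same points, S1 (0.1 h-1) and S3 (0.05 h-1), and at S5 (0.1 h-1 again, after the slow phase). The *flo8Δ* strain lacks the part of the promoter next to the coding sequence, and the beginning of that sequence, of *FLO8* (PP7435_Chr4-0252) and is otherwise CBS7435. Since each culture was run through its sampling points one after the other, libraries of different samples of a strain may come from 1 chemostat, and p-values measure the spread between these libraries.

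Flocculins are cell wall proteins through which yeast cells stick to each other and to surfaces. A typical flocculin has a secretion signal, a binding domain, a long stretch of repeats rich in serine or threonine, and a C-terminal signal for a glycosylphosphatidylinositol (GPI) anchor. In *Saccharomyces cerevisiae* Flo8 is a transcriptional activator of such genes, and Flo11 serves in pseudohyphal growth, in which elongated cells stay attached to each other. Of the proteins described here, Flo5-1 is predicted to have a PA14/GLEYA carbohydrate-binding domain, Flo400 a signal peptide and a GPI anchor, and the product of PP7435_Chr3-1237 a GPI anchor without a signal peptide. All of them hold a flocculin_t3 repeat.

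Between 4163342 and 10843287 reads per library lay behind the normalized counts, with the lowest depths in *flo8Δ* S1 replicate 2 and wild-type S1 replicate 3. Levels are given as TPM (transcripts per 1000000), which account for transcript length. Fold changes are on the scale of log2(normalized count + 1) with their standard error (SE). *FLO8* itself averaged 28.2 ± 3.88 TPM in *flo8Δ* and 36.2 ± 3.20 TPM in wild-type cells at S1, and 32.6 ± 2.69 TPM in *flo8Δ* and 33.7 ± 0.621 TPM in wild-type cells at S3 (SD, n = 3 each). Reads were thus still assigned to *FLO8* in *flo8Δ*, where part of the gene remains, and its level does not check the strain labels. Replicates of a sample correlated at Pearson r of 0.976 to 0.997 over 5319 genes, with the lowest values in wild-type S1 (0.976 and 0.986) and S5 (0.984 and 0.986), each time in pairs with replicate 3.

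*FLO400* was the most abundant of these flocculin transcripts in the wild-type strain and kept a clear remainder without Flo8. At S1 it had 349.6, 265 and 403 TPM in the *flo8Δ* libraries, against 3312, 2669 and 4312.5 TPM in the wild-type libraries. At S3 it had 107, 102 and 131 TPM in *flo8Δ* and 1349, 1815 and 2166 TPM in wild-type cells. The strains did not overlap at either growth rate, as was the case for 30.7% of all genes at S1 and 22.4% at S3 in the direction of a lower level in *flo8Δ*. The *flo8Δ* level was lower by 9.43-fold at S1 (log2 fold change -3.24 ± 0.18) and by 16.1-fold at S3 (-4.01 ± 0.13). In the wild-type strain at S5, *FLO400* had 1031, 1263 and 794 TPM, below every library of the earlier samples of that strain, as were 22.1% of all genes against S1 and 29.1% against S3. The log2 fold change in the wild-type strain was -0.92 ± 0.19 for S3 against S1 and -1.61 ± 0.23 for S5 against S1, a comparison that uses the same S1 libraries. By mean TPM, *FLO400* ranked 438 of 5341 transcripts in *flo8Δ* at S1 and 41 in wild-type cells at S1.

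*FLO5-1* showed the largest strain difference of these genes at S1 and an even, low level without Flo8. At S1 it had 47.7, 48.2 and 46.5 TPM in *flo8Δ*, against 1893, 2167 and 2409 TPM in the wild-type strain. At S3 it had 50.7, 44.1 and 48.9 TPM in *flo8Δ* and 628, 657 and 713.5 TPM in the wild-type strain. The 6 *flo8Δ* libraries thus lay within a narrow range, and the wild-type libraries of both samples were well above it. In this direction, 30.7% of all genes did not overlap between the strains at S1 and 22.4% at S3. The level in *flo8Δ* was 42.3-fold lower at S1 (log2 fold change -5.40 ± 0.09) and 14.5-fold lower at S3 (-3.86 ± 0.06). At S5 the wild-type libraries had 491, 546 and 222 TPM, with replicate 3 as the lowest. The log2 fold change in the wild-type strain was -1.66 ± 0.11 for S3 against S1 and -2.34 ± 0.34 for S5 against S1, or -1.88 ± 0.14 for S5 against S1 without replicate 3 of S5.

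PP7435_Chr3-1237 was expressed at a low level even where it was highest. At S1 it had 3.80, 3.29 and 2.32 TPM in *flo8Δ*, from 40, 16 and 27 reads, and 27.9, 34.2 and 46.0 TPM in the wild-type strain, from 328, 404 and 220 reads. At S3 it had 7.22, 6.49 and 9.97 TPM in *flo8Δ* and 8.49, 15.3 and 15.3 TPM in the wild-type strain. The strains did not overlap at S1, as for 30.7% of all genes in this direction, whereas at S3 the highest *flo8Δ* library exceeded the lowest wild-type library. The *flo8Δ* level was 10.4-fold lower at S1 (log2 fold change -3.38 ± 0.22) and 1.68-fold lower at S3 (-0.75 ± 0.21). At S5 the wild-type libraries had 10.9, 9.40 and 32.8 TPM, and here replicate 3 was the highest. The log2 fold change in the wild-type strain was -1.45 ± 0.24 for S3 against S1 and -1.11 ± 0.39 for S5 against S1, or -1.62 ± 0.19 for S5 against S1 without replicate 3 of S5.

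**Figure D1:**
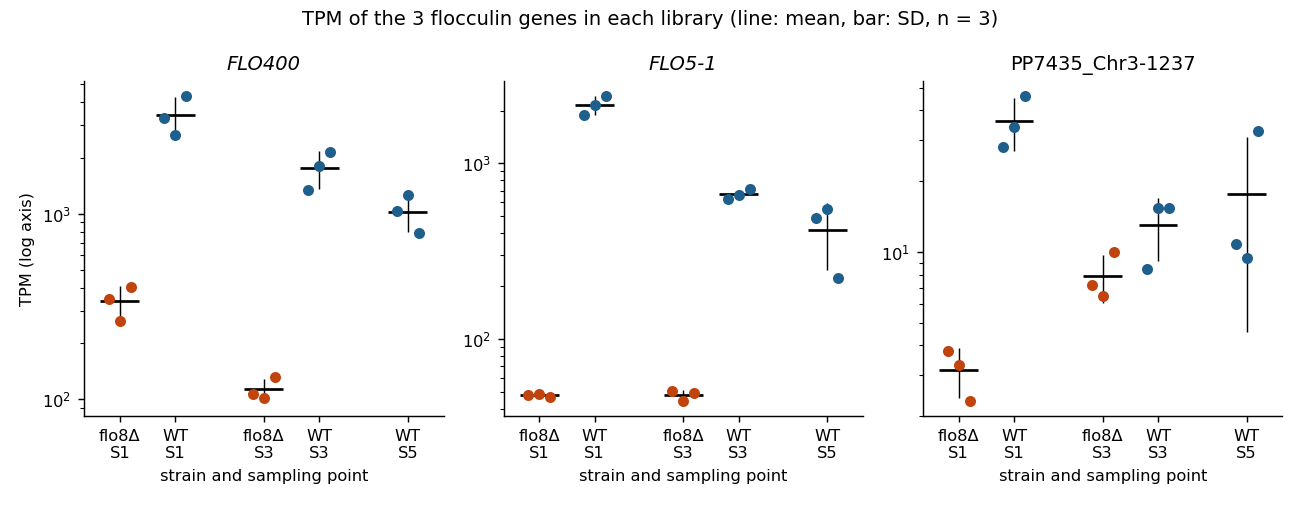
TPM on a log axis of *FLO400*, *FLO5-1* and PP7435_Chr3-1237 in each library, with *flo8Δ* in red-brown and wild type (WT) in blue; horizontal lines are means and vertical lines SD (n = 3). *FLO400* has no overlap between samples. The same held for 9.91% of all genes for *flo8Δ* S3 below S1, 23.5% for WT S3 below S1 and 29.1% for WT S5 below S3. *FLO5-1* lies between 44.1 and 50.7 TPM in all *flo8Δ* libraries. PP7435_Chr3-1237 is higher at S3 than at S1 in *flo8Δ* and lower at S3 than at S1 in the wild-type strain.

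Ordered by rising level, *FLO400* had no overlap between neighbouring samples. Its means were 114 ± 15.7 TPM (*flo8Δ*, S3), 339 ± 69.4 (*flo8Δ*, S1), 1029 ± 234 (wild type, S5), 1776 ± 409.7 (wild type, S3) and 3431 ± 828 (wild type, S1; SD, n = 3 each). In the same direction, 9.91% of all genes did not overlap between *flo8Δ* S3 and S1. This share was 29.1% between wild-type S5 and S3 and 23.5% between wild-type S3 and S1. It was not computed for *flo8Δ* S1 against wild-type S5. The *flo8Δ* samples of *FLO5-1* overlapped at 47.5 ± 0.893 TPM (S1) and 47.9 ± 3.38 TPM (S3), and its wild-type samples had the same order as those of *FLO400*, with 419 ± 174 TPM at S5, 666 ± 43.3 at S3 and 2156 ± 258 at S1. PP7435_Chr3-1237 was lowest in *flo8Δ*, at S1 with 3.13 ± 0.752 TPM and at S3 with 7.89 ± 1.84, followed by the wild type at S3 with 13.0 ± 3.95, at S5 with 17.7 ± 13.1 and at S1 with 36.0 ± 9.18. Of these, wild-type S5 overlapped with both S1 and S3 and wild-type S3 with *flo8Δ* S3, and only *flo8Δ* S1 stood apart from its neighbour in the order. For 35.8% of all genes, too, every *flo8Δ* S3 library was above every *flo8Δ* S1 library. *FLO400* and *FLO5-1* did not keep a fixed proportion. The ratio of their TPM was 7.33, 5.50 and 8.67 in the *flo8Δ* S1 libraries and 2.11, 2.31 and 2.69 in those of S3. In wild-type cells it was 1.75, 1.23 and 1.79 at S1, 2.15, 2.76 and 3.04 at S3, and 2.10, 2.31 and 3.58 at S5, so the *flo8Δ* S1 libraries held proportionally the most *FLO400* transcript.

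The change without Flo8 was tested between the *flo8Δ* samples at S3 and S1, a comparison that holds no wild-type library. S3 always followed S1 and *flo8Δ* was not sampled at S5, so growth rate and time in the chemostat cannot be told apart here. This comparison was not itself used to choose the genes. Its libraries were, since they enter both strain comparisons by which the genes were chosen, so the test is not independent of that choice. The 3 genes gave 3 different results. *FLO400* fell, with 114 ± 15.7 TPM at S3 and 339 ± 69.4 TPM at S1 in *flo8Δ* (log2 fold change -1.68 ± 0.12, adjusted p = 5e-06, limma with Benjamini-Hochberg adjustment over 5307 genes). PP7435_Chr3-1237 rose, with 7.89 ± 1.84 TPM at S3 and 3.13 ± 0.752 TPM at S1 (log2 fold change 1.20 ± 0.22, adjusted p = 0.0016, limma). *FLO5-1* did not pass the test; its log2 fold change was -0.10 ± 0.06 (adjusted p = 0.23, limma) and a 95% interval of -0.24 to 0.04. Every S3 library of *FLO400* was below every S1 library (9.91% of all genes), and every S3 library of PP7435_Chr3-1237 was above every S1 library (35.8% of all genes). Calls required an adjusted p below 0.05 and a log2 fold change above 1 or below -1. By this rule 0.226% of all genes tested were called lower and 0.32% higher in *flo8Δ* at S3 than at S1, and of the 3 genes 1 was called lower and 1 higher. The response of *FLO400* had the same direction in the wild-type strain, where the log2 fold change was -0.92 ± 0.19. That of PP7435_Chr3-1237 had the opposite direction there, at -1.45 ± 0.24, and every wild-type S3 library was below every S1 library, as for 23.5% of all genes. The difference between the strains' responses was not tested. Relative to *ACT1* the log2 fold change of *FLO5-1* was 0.21 ± 0.06 (adjusted p = 0.016, limma). The same scaling moved the median of all genes by 0.31, and *ACT1* itself had a log2 fold change of -0.32 ± 0.07.

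The return to fast growth was examined in the wild-type strain between S5 and S3. Its S3 and S5 libraries both entered the choice of the genes, through their comparisons with S1, so this test is not independent of that choice. None of the 3 genes was called, against 2.33% of all genes called lower and 0.0565% called higher at S5. *FLO400* was at 1029 ± 234 TPM at S5 and 1776 ± 409.7 TPM at S3, without overlap, as for 29.1% of all genes in this direction. Its log2 fold change of -0.71 ± 0.23 (adjusted p = 0.039, limma) did not reach the fold threshold. Its adjusted p was 0.12, 0.14 and 0.082 in limma without replicate 2 of S3, replicate 3 of S3 or replicate 1 of S5. *FLO5-1* was at 419 ± 174 TPM at S5 and 666 ± 43.3 TPM at S3, again without overlap, and its log2 fold change was -0.70 ± 0.33 (adjusted p = 0.13, limma) and a 95% interval of -1.45 to 0.06. Without replicate 3 of S5 the value for *FLO5-1* was -0.24 ± 0.08 (adjusted p = 0.023, limma). PP7435_Chr3-1237 was at 17.7 ± 13.1 TPM at S5 and 13.0 ± 3.95 TPM at S3, and its log2 fold change was 0.32 ± 0.42 (adjusted p = 0.57, limma). This value was -0.20 ± 0.22 without replicate 3 of S5, so its sign rested on that library. In this same library *FLO300* and *FLO100*, other *FLO* family genes, had 340.0 and 94.1 TPM, against 84.9 and 5.00 TPM in replicate 1 and 58.2 and 1.90 TPM in replicate 2 of S5. In no library of S5 did *FLO400* or *FLO5-1* reach its lowest S1 level, as was the case for 22.1% of all genes.

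The deposited data hold a second count for each gene. The kallisto files of the single libraries, which are named as stranded, give estimated counts that sum to 5.06% to 6.11% of the reads behind the normalized counts, and the median gene had a share of 2.23% to 2.94%, depending on the library. Taking the estimated counts as a part of those reads, they can be compared with the remaining reads of the same library. No source used here states the strand setting behind the normalized counts, and which strand either part comes from cannot be told. For *FLO400* the estimated counts were 1.95% of the reads in *flo8Δ* at S3, 0.952% in *flo8Δ* at S1 and 0.533% to 0.649% in the wild-type samples, so its levels rest on the remaining reads.

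For *FLO5-1* the parts behaved differently. The estimated counts stayed between 28.2 and 48.8 per 1000000 reads (RPM) in all 15 libraries. They averaged 45.1 ± 2.23 RPM in *flo8Δ* and 41.7 ± 1.89 in wild-type cells at S1, and 45.9 ± 2.56 in *flo8Δ* and 32.4 ± 5.16 in wild-type cells at S3 (SD, n = 3 each). The remaining reads averaged 39.6 ± 1.03 RPM in *flo8Δ* and 3532 ± 383 in wild-type cells at S1, and 36.9 ± 2.83 in *flo8Δ* and 1091 ± 51.7 in the wild-type strain at S3. The estimated counts thus made up 52.8% of the *FLO5-1* reads in *flo8Δ* at S1 and 55.4% at S3, against 1.20% and 2.88% in the wild-type strain. With the remaining reads alone, the log2 fold change of *flo8Δ* against wild type was -6.49 ± 0.13 at S1 and -5.00 ± 0.08 at S3 (edgeR), compared with -5.40 and -3.86 for all reads. With the estimated counts alone it was 0.11 ± 0.10 and 0.46 ± 0.11 (edgeR), so the lower level in *flo8Δ* was carried by the remaining reads.

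For PP7435_Chr3-1237 the division bears on the result in the *flo8Δ* strain. Here the estimated counts made up 94.9% of the reads at S3 and 90.2% at S1, against 31.2% and 5.63% in the wild-type strain. The remaining reads in *flo8Δ* came to 3.5, 1.6 and 8.3 at S3 and to 4.3, 0.7 and 3.1 at S1, against 48.8, 104.2 and 120.3 at S3 and 303, 384.5 and 211 at S1 in the wild-type strain. The increase at S3 in *flo8Δ* lay in the estimated counts, which averaged 8.45 ± 1.40 RPM at S3 and 3.33 ± 0.779 at S1 (SD, n = 3 each). Tested on their own, the estimated counts gave a log2 fold change of 1.30 ± 0.23 (adjusted p = 3e-04, edgeR), and the remaining reads in RPM gave 0.11 ± 0.21 (adjusted p = 0.70, limma). The estimated counts were also higher at S3 than at S1 in the wild-type strain, with 4.46 ± 1.23 and 2.05 ± 0.212 RPM, while the remaining reads were lower with 9.92 ± 4.22 and 36.9 ± 8.79 RPM. The estimated counts of this gene were not whole numbers in any of the 15 libraries, as happens where kallisto divides reads between transcripts with common sequence, so its values are less certain than those of *FLO5-1*, whose estimated counts were whole in all 15.

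**Figure D2:**
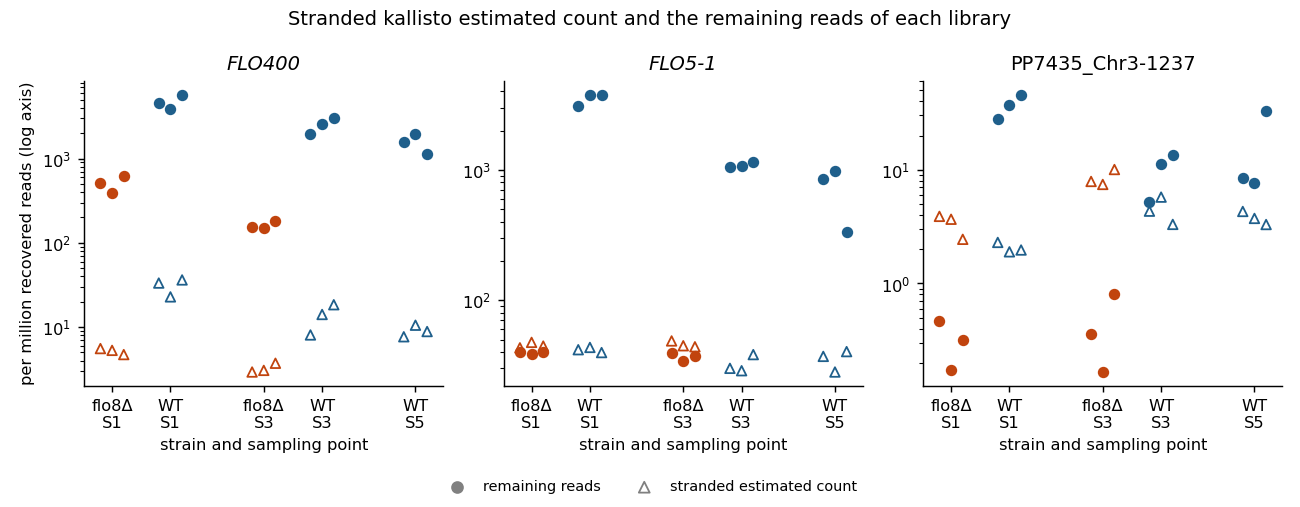
Stranded kallisto estimated counts (open triangles) and remaining reads (filled circles) in RPM on a log axis, in each library of *flo8Δ* (red-brown) and wild type (WT, blue). For *FLO5-1* the estimated counts lie between 28.2 and 48.8 in all libraries while the remaining reads separate the strains, and for PP7435_Chr3-1237 in *flo8Δ* the estimated counts exceed the remaining reads.

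Of the 10 other *FLO* family genes, *FLO11* (PP7435_Chr2-0267), the adhesin of pseudohyphal growth in *S. cerevisiae*, was the only one called between the strains. *FLO11* fell to 0.444 ± 0.233 TPM in *flo8Δ* at S1, against 6.54 ± 3.73 TPM in the wild-type strain (log2 fold change -3.53 ± 0.57, adjusted p = 0.0028, limma), and to 0.288 ± 0.143 TPM at S3, against 58.8 ± 20.5 TPM (-7.59 ± 0.30, adjusted p = 1.3e-09, limma). With this gene, 1 of 9 genes tested was called lower and none higher in *flo8Δ* at either growth rate. Of all genes, 2.54% (S1) and 3.8% (S3) were called lower and 0.641% (S1) and 0.414% (S3) higher. Without replicate 1 of wild-type S3, 2 genes, *FLO11* and *FLO300*, were called lower at S3. These counts differ with the part of the reads. On the remaining reads alone, *FLO5-2* (PP7435_Chr3-1228; -1.30) and *FLO300* (-2.12) were called lower as well at S1, and *FLO5-2* (-1.13) and PP7435_Chr4-1013 (-3.86) at S3 (edgeR). On the estimated counts alone, *FLO11* had 26 counts in *flo8Δ* and 16 in wild type at S1, over 3 libraries each, too few for the test. At S3 it was not called, with 23 counts in *flo8Δ* and 42 in wild type (edgeR). *FLO300* was called higher in *flo8Δ* at both growth rates on these counts (1.18 at S1 and 1.15 at S3, edgeR). The median log2 fold change of the 9 was 0.33 at S1 and -0.05 at S3, and that of all genes 0.00 at both. *FLO100* (PP7435_Chr1-1587) had too few reads for the test between the strains, and was called lower in *flo8Δ* at S3 without the filter (-5.14) or with all 15 libraries in 1 fit (-5.01). It had 0 reads in each *flo8Δ* S3 library, which allows up to 3 reads per library, and a mean of 5.34 ± 4.94 TPM in wild type at S3. Between S3 and S1 in the wild-type strain, *FLO11* (3.36 ± 0.53) and *FLO300* (PP7435_Chr4-1020; 2.10 ± 0.55) were called higher and no other *FLO* gene lower (adjusted p = 0.0032 and 0.022, limma), opposite in sign to *FLO400*, *FLO5-1* and PP7435_Chr3-1237. Here 1.11% of all genes were called higher and 0.32% lower. The call of *FLO300* was lost without replicate 1 of S1, replicate 2 of S3 or replicate 3 of S3, which left 1 gene called. On the remaining reads alone, *FLO200* (PP7435_Chr3-1226, -1.42) and *FLO5-2* (-1.93) were called lower here, with the same sign as *FLO400* and *FLO5-1*. *FLO100* (4.11) was then called higher as well (edgeR).

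Between *flo8Δ* S3 and S1, 8 of the 10 other *FLO* genes could be tested. *FLO300* rose to 25.6 ± 3.20 TPM at S3, against 9.32 ± 0.925 TPM at S1 (1.33 ± 0.12, adjusted p = 1.9e-05, limma), and none was called lower. Of all genes, 0.32% were called higher and 0.226% lower. In 4 of the 8 every S3 library was below every S1 library (9.91% of all genes), and in 1, *FLO300*, above (35.8%). The 4 were *BSC1* (-0.68), *FLO200* (-0.73), *FLO5-2* (-0.34) and PP7435_Chr4-1013 (-0.58), short of the fold threshold (adjusted p = 0.00031 to 0.011, limma). The median of the 8 was -0.36, and that of all genes 0.00. On the remaining reads *FLO300* had 4.39, and *FLO200* (PP7435_Chr3-1226; -1.54) and *FLO5-2* (-1.74) were called lower (edgeR). The call of *FLO300* was lost on the estimated counts and with all 15 libraries in 1 fit, and its estimated counts were not whole in any library. *FLO5-2*, whose protein resembles Flo5-1, had 14.9 ± 1.08 TPM in *flo8Δ* and 16.4 ± 2.71 TPM in wild type at S1, and 12.7 ± 0.224 TPM in *flo8Δ* and 12.0 ± 1.83 TPM in wild type at S3. Its log2 fold change between the strains was -0.04 ± 0.11 at S1 and 0.03 ± 0.10 at S3 (adjusted p = 0.82 and 0.81, limma), and 81.6% to 97.2% of its reads in a sample were estimated counts of the stranded files. Its remaining reads averaged 3.73 ± 0.426 RPM in *flo8Δ* and 8.999 ± 0.890 RPM in wild type at S1, and 1.17 ± 0.190 RPM in *flo8Δ* and 2.36 ± 0.752 RPM in wild type at S3. On these alone it was lower in *flo8Δ* at S1 (-1.30 ± 0.18, adjusted p = 0.0014, edgeR) and S3 (-1.13 ± 0.35, adjusted p = 0.018, edgeR), whereas on the estimated counts alone it had 0.15 ± 0.13 and 0.13 ± 0.11 (adjusted p = 0.53 and 0.4, edgeR). PP7435_Chr1-2104 was the most abundant of the *FLO* genes in *flo8Δ*, with 3978 ± 464 TPM at S1 and 3642 ± 595 TPM at S3, compared with 2942 ± 373 and 3309 ± 404 TPM in the wild-type strain. It was also the most abundant in wild type at S3 and at S5 (3697.5 ± 706 TPM), whereas at S1 *FLO400* was. In the wild-type strain at S5, *FLO300* was called higher than at S1 (4.03 ± 0.52, adjusted p = 0.02, limma) and no other *FLO* gene lower, where 0.0941% of all genes were called higher and 0.301% lower. With the replicate number as a block, 3 *FLO* genes (*FLO300*, *FLO11* and *FLO100*) were called higher in this comparison. Without replicate 1 of S1 or replicate 1 of S5, 0 were called higher, and without replicate 3 of S1, 2 were. On the remaining reads alone, *FLO200* (-1.64) and *FLO5-2* (-2.48) were called lower at S5 than at S1 (edgeR). At S5 against S3, *FLO11* was called lower (-1.58 ± 0.24, adjusted p = 0.0016, limma), where 2.33% of all genes were called lower, and none was called higher.

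**Figure D3:**
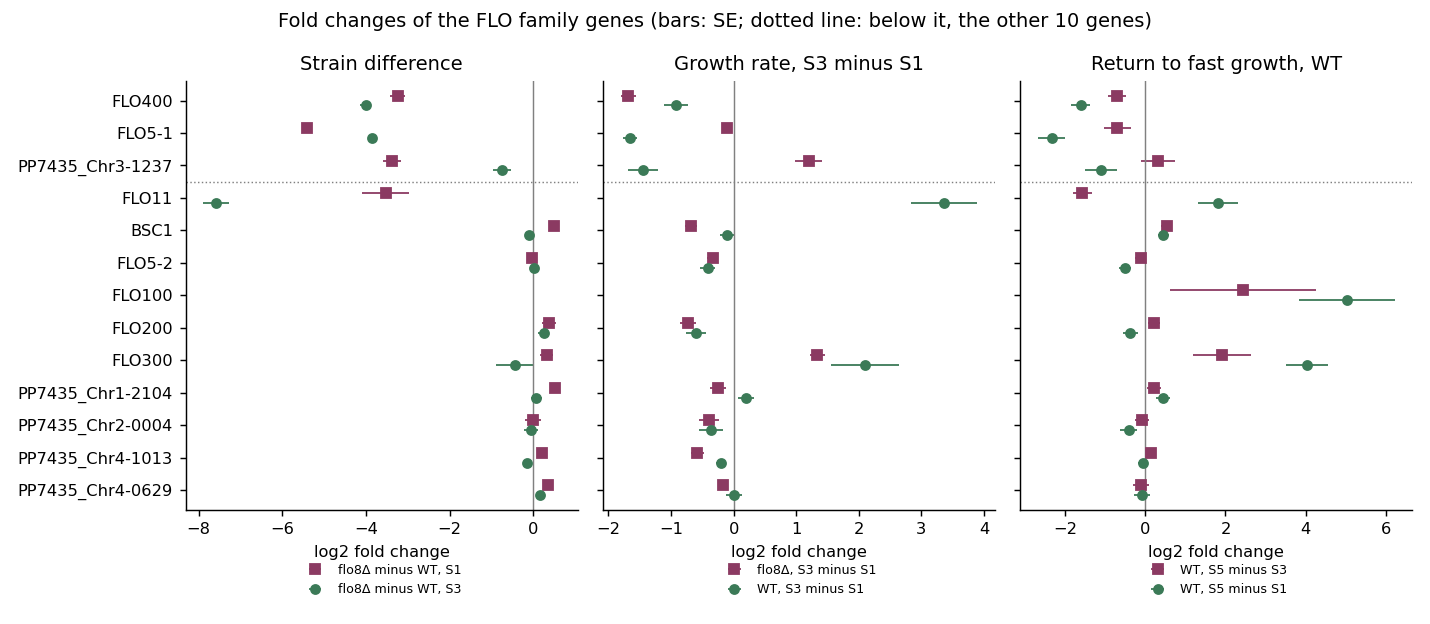
Log2 fold changes of the 13 *FLO* family genes between *flo8Δ* and wild type (WT, left), between S3 and S1 in each strain (middle) and between S5 and the earlier samples of the wild-type strain (right); symbols are estimates and bars SE, and a missing symbol marks a gene with too few reads. *FLO400*, *FLO5-1* and PP7435_Chr3-1237, above the dotted line, lie left of 0 in both strain comparisons together with *FLO11*, which lies right of 0 for S3 against S1 in the wild-type strain.

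Transcripts whose locus tag lies within 5 numbers of a gene's own tag were examined as its surroundings. Of these, 22 are listed in the tables and all 22 were tested. Positions, strands and overlaps were not analysed here, so reads of overlapping transcripts cannot be told apart. In *flo8Δ* against wild type, 5 of the 22 were called lower at S1 and 2 at S3, against 2.54% and 3.8% of all genes, and 0 were called higher. With the estimated counts alone, 1 was called lower and 2 higher at each growth rate, and with the remaining reads alone 5 were called lower at S1 and 4 at S3 (edgeR). None of the 9 tags around *FLO400* was called between the strains. PP7435_Chr4-0866, the next tag, averaged 164 ± 6.21 TPM in *flo8Δ* and 222 ± 22.3 TPM in wild type at S1, a log2 fold change of -0.34 ± 0.07 that did not reach the fold threshold (adjusted p = 0.0063, limma). At S3 its value was -0.41 ± 0.06 (adjusted p = 0.00011, limma). PP7435_Chr4-0869 was also lower in *flo8Δ* at S1 (-0.43 ± 0.11, adjusted p = 0.022, limma). At S1, PP7435_Chr4-0863 and PP7435_Chr4-0860 had larger values in the opposite direction. PP7435_Chr4-0863 averaged 128 ± 15.5 TPM in *flo8Δ* and 73.9 ± 9.69 TPM in wild type at S1 (0.88 ± 0.11, adjusted p = 0.00099, limma), but had -0.19 ± 0.06 at S3 (adjusted p = 0.025, limma). PP7435_Chr4-0860 had 0.52 ± 0.10 at S1 and 0.40 ± 0.09 at S3 (adjusted p = 0.0065 and 0.0021, limma). PP7435_Chr4-0863 was called higher in wild-type cells at S3 than at S1 (1.57 ± 0.11, adjusted p = 0.00043, limma), where *FLO400* had -0.92.

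PP7435_Chr1-1388, the tag before *FLO5-1*, followed *FLO5-1* closely. It had 5.26, 4.31 and 4.63 TPM in *flo8Δ* at S1, against 152, 190.3 and 179 TPM in the wild-type strain, and 1.03, 1.55 and 2.15 TPM in *flo8Δ* at S3, against 63.9, 63.5 and 65.1 TPM. It fell in *flo8Δ* with log2 fold changes of -5.08 ± 0.12 at S1 (adjusted p = 5.7e-08, limma) and -5.40 ± 0.19 at S3 (adjusted p = 3.6e-10, limma). It also fell in wild-type cells, with -1.40 ± 0.10 for S3 against S1 and -2.24 ± 0.31 for S5 against S1 (adjusted p = 0.00043 and 0.021, limma). At S5 it had 41.5, 44.8 and 20.3 TPM, with replicate 3 as the lowest, like *FLO5-1*. Unlike *FLO5-1*, it also fell in *flo8Δ* at S3 against S1 (-1.70 ± 0.26, adjusted p = 0.00051, limma), where its libraries held 15 to 32 reads at S3 and 28 to 74 reads at S1. Relative to *ACT1* this value was -0.97 ± 0.20 and short of the fold threshold. The call for S5 against S1 was lost without replicate 1 of S1 (adjusted p = 0.097, limma) or replicate 1 of S5 (adjusted p = 0.068, limma). On the other side of *FLO5-1*, PP7435_Chr1-1390 had 30.6 ± 1.39 TPM in *flo8Δ* and 25.4 ± 3.01 TPM in wild type at S1 and was not called. PP7435_Chr1-1387 was called lower in *flo8Δ* at S1 (13.0 ± 1.82 TPM, against 55.6 ± 10.8 TPM in wild type) and PP7435_Chr1-1393 at both S1 (38.4 ± 2.07, against 211 ± 82.1 TPM) and S3 (49.9 ± 3.62, against 120.4 ± 5.85 TPM). On the estimated counts alone, PP7435_Chr1-1393 was called higher in *flo8Δ* at both (1.47 at S1 and 1.69 at S3, edgeR) and PP7435_Chr1-1387 was not called (0.96 at S1). At S3 PP7435_Chr1-1387 was just short of the fold threshold between the strains (-0.98 ± 0.15, adjusted p = 0.00021, limma). It was called lower there on the remaining reads (-5.64, edgeR), or without replicate 2 of wild-type S3 or replicate 1 or 3 of *flo8Δ* S3. In wild-type cells PP7435_Chr1-1387 was called lower at S3 than at S1 (-1.12 ± 0.15, adjusted p = 0.0018, limma). At S5 against S1, PP7435_Chr1-1387 and PP7435_Chr1-1393 were called lower (-1.54 ± 0.15 and -1.28 ± 0.27, adjusted p = 0.011 and 0.047, limma). Both S5 calls were lost without replicate 1 of S5 (adjusted p = 0.068 and 0.14, limma). None of these wild-type calls was kept on the estimated counts alone (edgeR).

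PP7435_Chr3-1236, the tag before PP7435_Chr3-1237, was also called lower in *flo8Δ* at S1, as was PP7435_Chr3-1232 (-1.26 ± 0.32, adjusted p = 0.02, limma). The call of PP7435_Chr3-1232 was lost without replicate 2 of wild-type S1, replicate 1 of *flo8Δ* S1 or replicate 2 of *flo8Δ* S1 (adjusted p = 0.057 to 0.074, limma). PP7435_Chr3-1232 was also called lower in wild-type cells at S3 than at S1 (-1.09 ± 0.29, adjusted p = 0.024, limma). That call was lost without any single library of S3, or without replicate 2 or 3 of S1. PP7435_Chr3-1236 averaged 2.26 ± 0.441 TPM in *flo8Δ* and 16.0 ± 4.47 TPM in wild type at S1 (-2.66 ± 0.22, adjusted p = 0.00012, limma), and 5.75 ± 1.81 TPM in *flo8Δ* and 6.34 ± 0.246 TPM in wild type at S3 (-0.25 ± 0.20, adjusted p = 0.32, limma). The parts of its reads differed between the strains in opposite directions at S3. It was called lower in *flo8Δ* on the remaining reads (-4.62 ± 0.49, adjusted p = 1.2e-05, edgeR) and higher on the estimated counts (1.1 ± 0.23, adjusted p = 0.00059, edgeR). PP7435_Chr3-1236 fell in the wild-type strain at S3 against S1 (-1.26 ± 0.16, adjusted p = 0.0016, limma) and rose in *flo8Δ* at S3 against S1 (1.17 ± 0.25, adjusted p = 0.0041, limma). Its estimated counts were likewise not whole in any library and made up 97.9% of its reads in *flo8Δ* at S3 and 94.3% at S1. The rise in *flo8Δ* was not called without replicate 1 of *flo8Δ* S3 (0.95 ± 0.27, adjusted p = 0.03, limma) or with a pseudocount of 10 (0.97 ± 0.21), and the remaining reads alone gave 0.05 ± 0.21 (adjusted p = 0.88, limma). Between wild-type S5 and S3 PP7435_Chr3-1236 had a log2 fold change of -0.93 ± 0.33 (adjusted p = 0.052, limma) and its lowest S5 value, 1.84 TPM, in replicate 3, the library in which PP7435_Chr3-1237 was highest. Of the other tags near PP7435_Chr3-1237, PP7435_Chr3-1234 was called lower in wild-type cells at S3 (-1.10 ± 0.13) and at S5 (-1.20 ± 0.13) than at S1, and PP7435_Chr3-1233 in *flo8Δ* at S3 than at S1 (-1.25 ± 0.36, adjusted p = 0.021, limma). The first call was lost without replicate 1 of S3 (-0.98 ± 0.12), the second without replicate 1 of S1 or replicate 1 of S5, and the third without replicate 1 of *flo8Δ* S3 (-0.82 ± 0.28) or replicates 2 or 3 of *flo8Δ* S1.

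**Figure D4:**
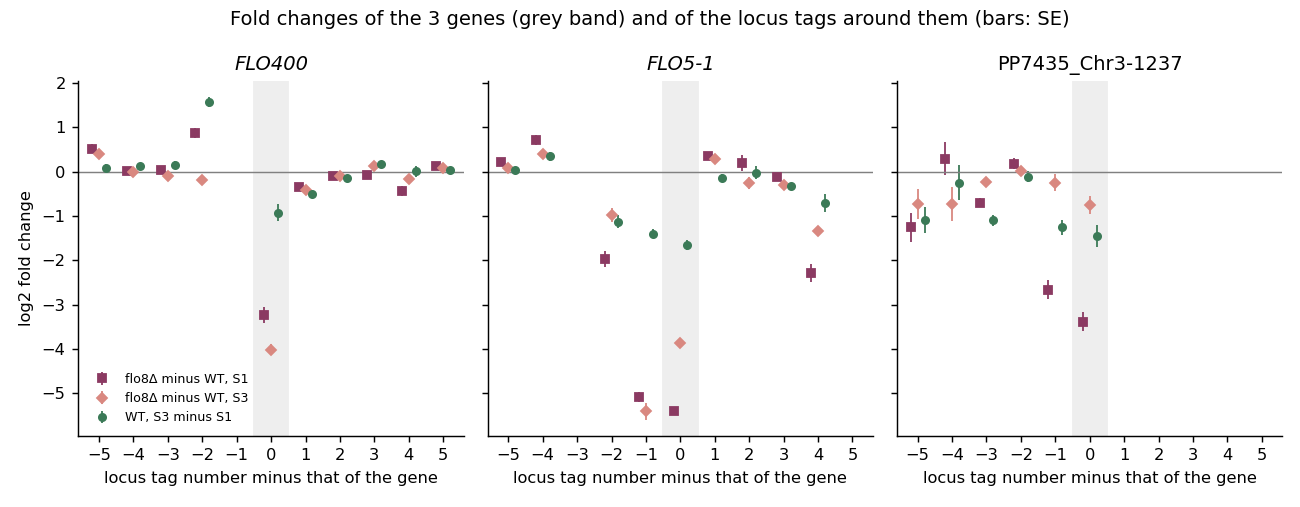
Log2 fold changes (symbols, with SE as bars) of *FLO400*, *FLO5-1* and PP7435_Chr3-1237 (grey band) and of the transcripts within 5 locus tag numbers, for *flo8Δ* minus wild type (WT) at S1 and S3 and for S3 minus S1 in the wild-type strain. None of the tags around *FLO400* passes 1 in either direction between the strains (the highest is at 0.88), while the tag before *FLO5-1* lies at -5.08 (S1) and -5.40 (S3).

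The transcripts with the profile most like each gene were ranked by Pearson r of log2(TPM + 1) over the 15 libraries, among 5318 other genes. These r values are a description, since the libraries share strains and samples. For *FLO400* the first was PP7435_Chr1-1388 (r = 0.984), the neighbour of *FLO5-1*, followed by PP7435_Chr2-0071, PP7435_Chr1-0818, PP7435_Chr2-2705 and PP7435_Chr1-0588 (r = 0.969 to 0.961). For *FLO5-1* it was PP7435_Chr1-1388 as well (r = 0.983), followed by PP7435_Chr3-1213 (r = 0.982), PP7435_Chr1-1117, PP7435_Chr1-1155 and PP7435_Chr2-1294 (r = 0.977 to 0.975). PP7435_Chr3-1213 was a far more abundant transcript, with 574 ± 1.33 TPM (S1) and 595 ± 72.6 TPM (S3) in *flo8Δ*, and 6391 ± 3148 TPM (S1), 2713 ± 303 TPM (S3) and 2258 ± 897 TPM (S5) in wild-type cells (SD, n = 3 each). For PP7435_Chr3-1237 the most similar were PP7435_Chr1-1410, PP7435_Chr1-0830, PP7435_Chr1-1431, PP7435_Chr1-1005 and PP7435_Chr2-0130 (r = 0.916 to 0.897). Among the 3 genes themselves, *FLO400* and *FLO5-1* had r = 0.949, *FLO5-1* and PP7435_Chr3-1237 r = 0.81 and *FLO400* and PP7435_Chr3-1237 r = 0.697. Seen from *FLO400*, *FLO5-1* had rank 8 and PP7435_Chr3-1237 rank 444 of the 5318. A high r does not mean a change of like size. PP7435_Chr2-0071 averaged 223 ± 8.99 TPM in *flo8Δ* at S3 and 345 ± 4.08 TPM in wild type at S1. *FLO400* averaged 114 ± 15.7 and 3431 ± 828 TPM in the same samples (SD, n = 3 each).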

How the data were processed

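RNA-Seq libraries of *K. phaffii* CBS7435 chemostat cultures were grouped by their labels. The authors sequenced poly-A RNA as single reads, trimmed with Trim Galore 0.4.2, ran kallisto 0.43.1 against the CBS7435 annotation, and normalized per comparison with DESeq2 1.14.1. Deposited were estimated counts and TPM for each library, the TPM of wild-type S1 replicate 1 as a fraction that sums to 1. Also deposited were 6 tables of normalized counts, a signal in reads per size factor, for 6 libraries each.

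To recover reads, normalized counts were multiplied by relative effective lengths and divided by the step of each column. All values (100%) were whole within 0.01 and equal between tables of the same library. DESeq2 rounds imported estimates, so these reads can include shares of reads common to several transcripts. TPM were computed from them with kallisto's effective lengths. The estimated count exceeded the recovered reads in 51 of 80115 cases (a gene in a library), where the remainder was set to 0.

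Within each table, limma 3.58.1 (R 4.3.3, trended prior variance) was run on log2(normalized count + 1), keeping genes that reached 10 normalized counts in 3 or more libraries, with Benjamini-Hochberg adjustment over all of them and the call thresholds of the study. The study itself used DESeq2. Alternatives were edgeR 4.0.16 and DESeq2 1.42.0 on recovered reads, edgeR on the estimated counts or the remaining reads, pseudocounts of 0.1 and 10, no filter, 1 fit of all libraries, a replicate block, TPM, ratios to *ACT1*, and omission of each library. limma on either part of the reads, and all alternatives for neighbouring tags, were added after seeing the data. The fits were tested on simulated data. Same-numbered wild-type S1 and S5 libraries deviated together (r = 0.129 to 0.189), and no other comparison had all correlations over 0.1. Wild-type S5 and S3 had r = 0.417, -0.1655 and 0.565 for replicates 1, 2 and 3, so replicates 1 and 3 deviated together and replicate 2 did not.

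Named are the 3 genes, the 10 other *FLO* family genes, *FLO8*, *ACT1*, tags within 5 numbers that were adjacent or called, and the 5 most similar profiles of each gene. Members and lists were chosen with earlier results of these data known. Of the 36 columns, 0 were left out.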

Additional observations from a re-analysis of the deposited data

Results flagged for a closer look

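PP7435_Chr3-1237 had opposite directions in the 2 strains between S1 and S3. Its log2 fold change for S3 against S1 was 1.20 in *flo8Δ*, where every S3 library was above every S1 library (35.8% of all genes). In the wild-type strain it was -1.45, and every S3 library was below every S1 library (23.5% of all genes). The difference between the strains was not tested. By parts, the estimated counts alone gave 1.30 in *flo8Δ* and 1.05 in the wild type (edgeR), and the remaining reads in RPM gave 0.11 in *flo8Δ* and -1.86 in the wild type (limma).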

How the results depend on the processing

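Log2 fold changes of *FLO400*, *FLO5-1* and PP7435_Chr3-1237 between *flo8Δ* and wild type, and their calls between *flo8Δ* S3 and S1, kept their direction and side of the thresholds under DESeq2 and edgeR on the recovered reads, the other pseudocounts, no filter and the replicate block. The values differ with the part of the reads used and, for low genes, with the scale. The cause was not tested.

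With edgeR on the estimated counts alone, *FLO400* had -2.56 (*flo8Δ* against wild type, S1), -2.09 (the same, S3), -1.23 (wild type, S3 against S1) and -0.74 (*flo8Δ*, S3 against S1, adjusted p = 0.039), *FLO5-1* had 0.11, 0.46 (*flo8Δ* against wild type, S1 and S3), -0.42, -0.24 (wild type, S3 and S5 against S1) and 0.19 (S5 against S3), and PP7435_Chr3-1237 had 0.66, 0.89, 1.05, 0.86 and -0.18 in the same order. With limma on the estimated counts in RPM, added after seeing the data, *FLO400* had -2.34, -1.71, -1.17 and -0.55 (adjusted p = 0.1), *FLO5-1* 0.11, 0.50, -0.36, -0.25 and 0.11, with 0.02 in *flo8Δ* for S3 against S1, and PP7435_Chr3-1237 0.49, 0.81, 0.82, 0.64 and -0.17.

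With edgeR on the remaining reads, *flo8Δ* against wild type at S1 and S3 gave -6.49 and -5.00 for *FLO5-1* and -6.67 and -4.56 for PP7435_Chr3-1237, which had -1.85 in wild type for S3 against S1 and no value in *flo8Δ* for S3 against S1, too few reads being left. With limma in RPM these were -6.44 and -4.85 for *FLO5-1* and -4.82, -2.86 and -1.86 for PP7435_Chr3-1237, and 0.11 in *flo8Δ* (adjusted p = 0.70). On the TPM scale, *FLO5-1* had -3.77 (*flo8Δ* against wild type, S3) and 0.0104 (*flo8Δ*, S3 against S1). As a ratio to *ACT1*, the values at S3 between the strains were -3.83 for *FLO400* and -3.66 for *FLO5-1*, and *FLO5-1* had 0.21 in *flo8Δ* for S3 against S1. A pseudocount of 10 gave -3.02 for PP7435_Chr3-1237 between the strains at S1.

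Without 1 library at a time, *FLO400* lay between -3.39 and -3.08 (*flo8Δ* against wild type, S1), -4.18 and -3.87 (S3), -1.06 and -0.75 (wild type, S3 against S1), -1.81 and -1.39 (S5 against S1), -0.91 and -0.49 (S5 against S3), and -1.84 and -1.53 (*flo8Δ*, S3 against S1). *FLO5-1* lay between -5.50 and -5.35, -3.91 and -3.82, -1.76 and -1.61, -2.62 and -1.88, -0.98 and -0.24, and -0.15 and -0.08, and PP7435_Chr3-1237 between -3.56 and -3.20, -1.02 and -0.61, -1.62 and -1.18, -1.62 and -0.81, -0.20 and 0.62, and 1.01 and 1.33. Over all alternatives the adjusted p in *flo8Δ* for S3 against S1 ranged between 4.2e-35 and 0.1 (*FLO400*), 0.016 and 0.94 (*FLO5-1*) and 7.5e-08 and 0.7 (PP7435_Chr3-1237), and in wild type for S5 against S3 between 0.0032 and 0.17, 0.023 and 0.68, and 0.31 and 0.95 (limma, edgeR or DESeq2).

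With the replicate block, the log2 fold changes in *flo8Δ* for S3 against S1 were -1.68, -0.10 and 1.20 (adjusted p = 2.5e-05, 0.31 and 0.011, limma), and the block changed no call of the 3 genes. In this comparison the same-numbered libraries did not deviate together (r = -0.249, -0.0974 and -0.272). The block brought the *FLO* genes called higher in wild type for S5 against S3 to 1, against 0 without it. In *flo8Δ* for S3 against S1, 17 genes were called higher and 12 lower, against 18 and 12 with edgeR on the recovered reads, 39 and 28 on the estimated counts, 30 and 14 on the remaining reads and 45 and 2 relative to *ACT1*, which moved the median of all genes by 0.31. In wild type for S5 against S3, 3 were called higher and 124 lower, and edgeR on the recovered reads called 3 and 120. Of the 5 genes most like *FLO400*, 3 were among the first 5 by Spearman rho and 1 over the 9 wild-type libraries; for *FLO5-1* these were 1 and 1, and for PP7435_Chr3-1237 4 and 0. Depth limits PP7435_Chr3-1237 the most, with 16 to 40 reads per *flo8Δ* S1 library.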
